A study of Mus musculus with 22 samples.

Results

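The mouse microRNAs mmu-miR-223-3p, mmu-miR-146a-5p and mmu-miR-146b-5p, named below without the species prefix, were followed across 3 kinds of mouse sample, each taken at 0 Gy or after X-rays. They were chosen by name, as the array entries annotated with exactly these mature miRNAs, and make up 3 of the 1881 mouse miRNAs on the array and 6 of its 4415 probes. RNA from small intestine tissue, blood serum and feces of male mice aged 8 weeks was hybridised to 22 single-colour Agilent arrays, 1 sample per array. The irradiated groups received 10 Gy at 1.0 Gy per minute and the control groups 0 Gy, with 4 arrays in each intestinal and each fecal group, 2 in the control serum group and 4 in the irradiated serum group. All groups were sampled as whole tissue, serum or feces rather than as sorted cells. The strain, the time between irradiation and collection, and whether replicates are different animals are not given in the sources used here, so the p-values reflect how these samples varied, which may be partly technical variation.

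MicroRNAs are short RNAs that guide Argonaute proteins to messenger RNAs through a seed near their 5′ end and lower the output of those messages. miR-223-3p is a myeloid miRNA, abundant in neutrophils and monocytes, where it restrains granulocyte activity. miR-146a-5p is induced by NF-κB and targets the Toll-like receptor adaptors TRAF6 and IRAK1, so that it acts as a brake on inflammatory signalling. miR-146b-5p is its close relative, made from another gene.

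The mature sequences are shown because the members share or differ in their seeds. They are from RefSeq, which matched all 3 names (build GRCm38.p6), and are written 5′ to 3′ with the seed, bases 2 to 8, in capitals.
miR-223-3p: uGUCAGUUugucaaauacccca
miR-146a-5p: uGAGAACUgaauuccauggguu
miR-146b-5p: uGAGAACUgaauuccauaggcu
The seed of miR-146a-5p and miR-146b-5p was the same, and no other of the 1679 mature mouse miRNA names in the RefSeq table carried it. These miRNAs are identical at 20 of 22 bases and differ by G18A and U21C, with the base of miR-146a-5p first and positions counted from 1 at the 5′ end. No other mature miRNA in the table carried the seed of miR-223-3p. In GRCm38.p6, Mir223 encodes miR-223-3p on the plus strand at chrX:96242884-96242905, where it overlaps the annotated gene F630028O10Rik. Mir146 encodes miR-146a-5p on the minus strand at chr11:43374435-43374456, with no other annotated gene over it. Mir146b encodes miR-146b-5p on the plus strand at chr19:46342790-46342811, where it overlaps Gm36493.

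Signals are the processed signals of Agilent Feature Extraction, background-subtracted brightness in arbitrary linear units, averaged over the spots of a probe and summed over the 2 probes of each miRNA. Detection on an array required that, for 1 or both probes, no fewer than 50% of the spots were flagged as well above background. Of the 22 arrays, miR-223-3p was detected on 12, miR-146a-5p on 9 and miR-146b-5p on 4. Between 285 and 389 miRNAs were detected on each intestine array, 131 to 219 on each serum array and 378 to 675 on each fecal array. Each sample type lay on a slide of its own and each dose in its own slide columns, so sample type and slide, and dose and column, cannot be told apart. All 10 miRNAs of an intestinal epithelium list and all 4 of a smooth muscle list were detected in intestine, while no liver miRNA was. No spot of the 6 probes was saturated on any array.

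**Figure D1:**
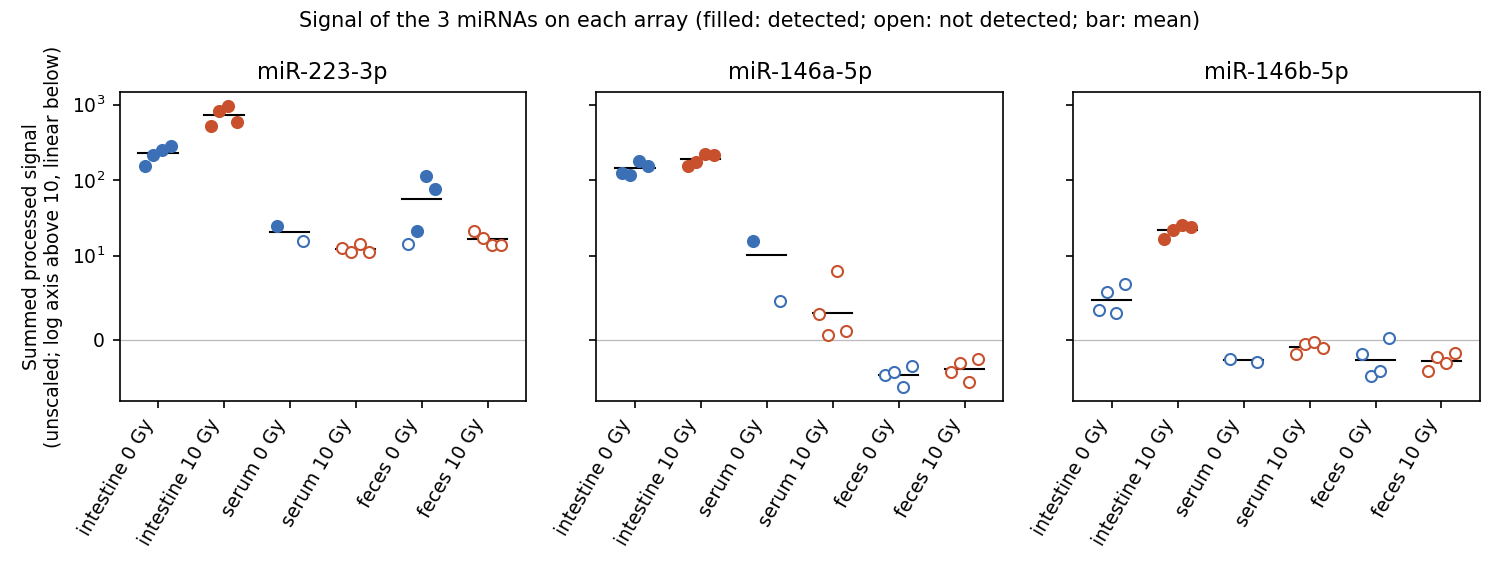
Unscaled summed signal of the 3 miRNAs on each of the 22 arrays by sample type and dose (log axis above 10, linear below). Filled points are arrays on which the miRNA was detected, open points are arrays on which it was not, and bars are group means. In intestine the miR-223-3p arrays lie between 155 and 283 at 0 Gy and between 516 and 957 at 10 Gy, and miR-146b-5p was detected on the 4 irradiated intestine arrays alone.

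In small intestine, miR-223-3p rose after 10 Gy to 2.30 times its control level, miR-146b-5p went from undetected to weakly detected, and miR-146a-5p did not pass the test. At 0 Gy the unscaled signals of miR-223-3p were 155, 217, 249.6 and 283 on replicates 1 to 4. At 10 Gy they were 516, 829, 957 and 584. Every irradiated array was brighter than every control array, and the control and irradiated means were 226 ± 54.4 and 721 ± 207 (SD, n = 4 each). Unscaled signals rose for many miRNAs, with 186 called higher, 13 lower and a median log2 change of 0.62 with no scaling. The share without overlap on the unscaled measure was not counted in intestine. After scaling each array by the 75th percentile of its signals over the 268 miRNAs detected on all 8 intestine arrays, the log2 change of miR-223-3p was 1.20 ± 0.19 (SE), with a 95% interval of 0.78 to 1.61, and the scaled arrays did not overlap either, as was the case in the higher direction for 23.6% of tested miRNAs. It passed with limma at an adjusted p of 0.000471, a miRNA being called below 0.05 after Benjamini-Hochberg adjustment over all 335 tested. Its rise ranked 22 of 335.

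The signals of miR-146a-5p in intestine at 0 Gy were 125, 116, 179 and 154. At 10 Gy they were 156, 175, 221 and 216. The doses overlapped on this unscaled measure, with means of 144 ± 28.3 and 192 ± 31.8 (SD, n = 4 each). The scaled log2 change was -0.04 ± 0.17 (SE), with a 95% interval of -0.41 to 0.33 and a limma adjusted p of 0.874. The interval does not reach the change measured for miR-223-3p. The direction is set by the scaling, since the change was 0.42 with no scaling (limma adjusted p = 0.0744), where the median of all tested miRNAs was 0.62.

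The signals of miR-146b-5p in intestine were 3.50, 5.62, 3.18 and 6.59 at 0 Gy, none of them detected. At 10 Gy they were 16.6, 22.02, 25.3 and 23.7, all detected, so the doses did not overlap. Detection on no control array and every irradiated array was seen for 26 of the 335 tested miRNAs, 7.76%. All 4 control arrays stood at the floor, which is the typical lowest level of a detected miRNA on these arrays, and the fitted log2 change above it was 0.82 ± 0.16 (SE), with a limma adjusted p of 0.00179. miR-146b-5p entered the test only through its 4 irradiated arrays and was compared with 4 equal floor values, so this p lends no support beyond the detection pattern itself. Against the lowest signal of a detected probe, the detected probe gave irradiated intestine at least 1.13-fold more miR-146b-5p than control intestine. This call was lost with a mean of log2 over both probes (0.20, limma adjusted p = 0.114) and the direction turned with the normexp background correction (-0.06, limma adjusted p = 0.493).

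The calls of miR-223-3p and miR-146b-5p have to be read against intestine as a whole. Of these, miR-146b-5p could be tested only because it was detected at 10 Gy. Among miRNAs detected on every intestine array, 53 were called higher and 47 lower. Among all 335 tested miRNAs 140 (41.8%) were called, 87 of them higher (26%) and 53 lower (15.8%). The tested set includes the 26 miRNAs detected on no control array and every irradiated array. The higher and lower counts were 55 and 66 with quantile normalization, 21 and 86 with the percentile taken over all miRNAs, and 186 and 13 with no scaling, while the median change of all tested miRNAs moved from 0.16 to 0.01, -0.35 and 0.62. Relative to that median, miR-223-3p was 1.04 higher under the main scaling and 1.15, 1.04 and 1.04 higher under these alternatives in turn. The same quantity for miR-146a-5p was -0.20, -0.21, -0.20 and -0.20. For miR-146b-5p it was 0.66, 0.63, 0.89 and 0.46. The call of miR-223-3p was lost with the percentile over all miRNAs (change 0.68, limma adjusted p = 0.0834). Both rows of the slide held both doses. Within row 1 the change of miR-223-3p was 1.44 (limma adjusted p = 0.0177), within row 2 it was 0.96 (limma adjusted p = 0.0741), and with row as a block it was 1.20 (limma adjusted p = 0.000737). For miR-146b-5p the changes were 0.81 and 0.83 within the rows, with limma adjusted p of 0.0819 and 0.13, each row holding 2 arrays per dose.

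**Figure D2:**
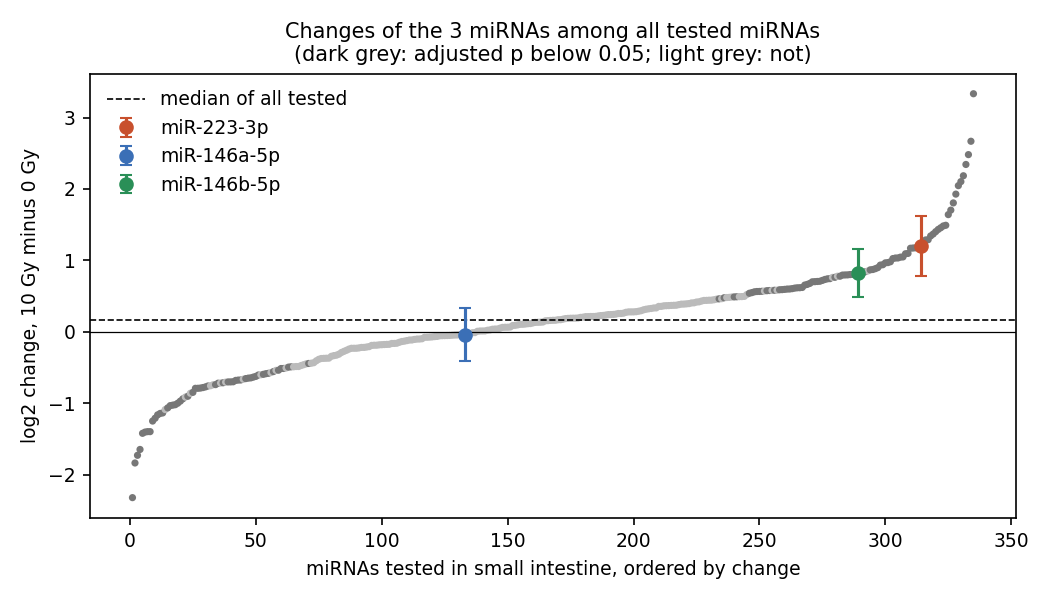
Log2 change from 0 to 10 Gy of the 335 miRNAs tested in small intestine, ordered by change, with the 3 miRNAs and their 95% intervals in colour and called miRNAs in dark grey. miR-223-3p (1.20) and miR-146b-5p (0.82) lie in the upper range and miR-146a-5p (-0.04) lies below the median of all tested (0.16).

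The 2 probes of each miRNA were read separately. For miR-223-3p, probe A_54_P2630 rose from 173 ± 41.9 to 572 ± 169 and the dimmer probe A_54_P2629 from 53.5 ± 12.7 to 149 ± 37.5 (unscaled signal, SD, n = 4 each), and neither overlapped between doses. Unscaled signals were higher at 10 Gy for many miRNAs, with a median log2 change of 0.62 over all tested. The scaled log2 changes of the 2 miR-223-3p probes were 1.25 ± 0.18 and 1.01 ± 0.16 (SE). The brighter probe was 3.09 to 3.40 times the dimmer one on the control arrays and 3.59 to 3.996 times on the irradiated arrays. For miR-146a-5p the changes were -0.03 ± 0.12 for A_54_P2317 and -0.08 ± 0.21 for A_54_P2318, and both probes were detected on all 8 arrays. For miR-146b-5p, A_54_P2006 averaged 5.29 ± 1.10 at 0 Gy and 19.6 ± 3.20 at 10 Gy, and A_54_P2005 was detected on no array. The call of miR-146b-5p therefore rests on 1 probe.

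**Figure D3:**
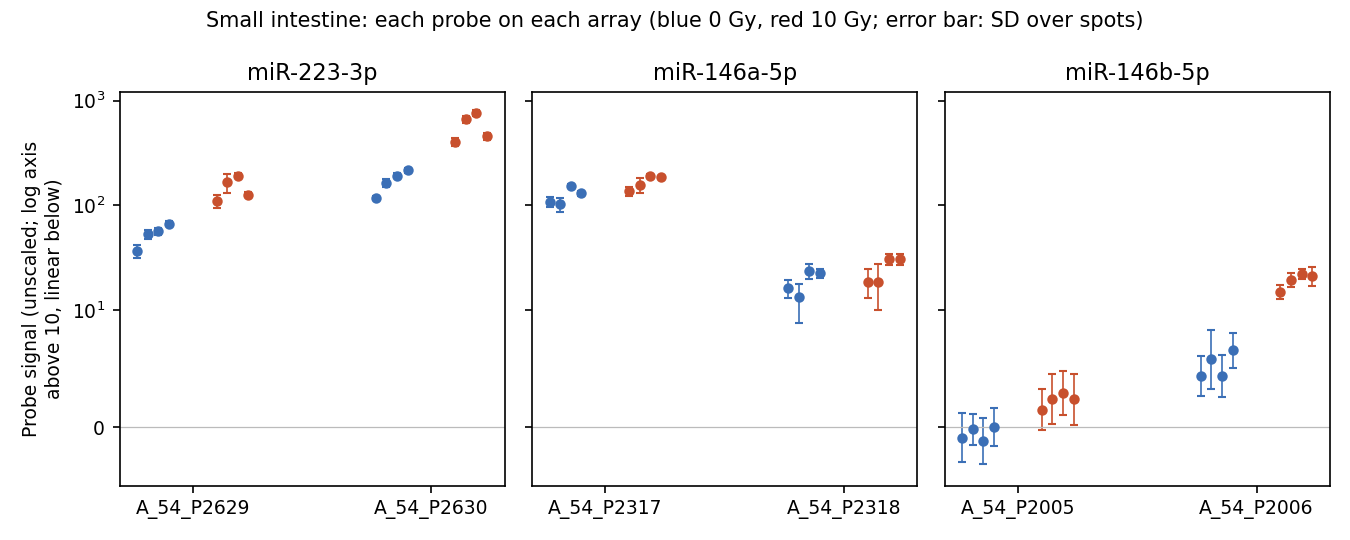
Unscaled signal of each of the 6 probes on each small intestine array, at 0 Gy in blue and 10 Gy in red (log axis above 10, linear below). Error bars are the SD over the spots of the probe on that array. Both miR-223-3p probes are separated by dose, the miR-146a-5p probes overlap, and for miR-146b-5p only A_54_P2006 clears background, at 10 Gy.

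A ratio of miR-223-3p to miR-146a-5p on the same array is free of the scaling between arrays. Its log2 was 0.31, 0.90, 0.48 and 0.88 at 0 Gy and 1.73, 2.24, 2.11 and 1.44 at 10 Gy. All irradiated arrays lay above all control arrays. The mean was 0.64 ± 0.29 at 0 Gy and 1.88 ± 0.37 at 10 Gy (SD, n = 4 each), a difference of 1.24 ± 0.23 (SE), so the ratio of signals was 2.36 times higher. The exact two-sided permutation p was 0.0286, the smallest that 4 arrays against 4 can give. This was the single pair of members detected on every array of a sample type, so no adjustment entered. The signals of different probes are not on a common scale of molecules, and the ratio is compared between doses only.

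**Figure D4:**
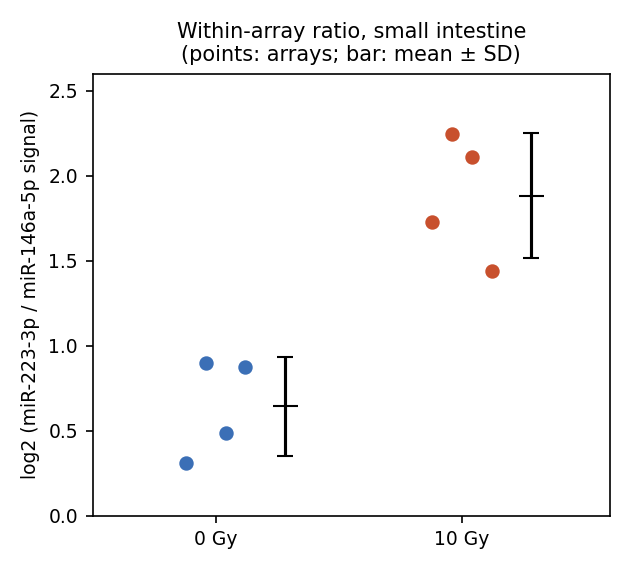
Log2 ratio of miR-223-3p to miR-146a-5p signal on each small intestine array by dose, with mean and SD (n = 4 arrays each). The control arrays lie between 0.31 and 0.90 and the irradiated arrays between 1.44 and 2.24.

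The other arms of the same hairpins, miR-223-5p, miR-146a-3p and miR-146b-3p, were detected on none of the 22 arrays. Their summed signals ranged from -13.6 to -7.42 for miR-223-5p, from -7.05 to -1.20 for miR-146a-3p and from -19.1 to -4.83 for miR-146b-3p. A negative value is a signal below the subtracted background. Only 1 arm of each hairpin was thus measurable here.

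Most tested miRNAs of a list of other inflammation-regulated miRNAs were higher in irradiated intestine. Of its 17 members 11 were tested, 7 were called higher (26% of all tested miRNAs were), none was called lower (15.8% of all) and 4 did not pass, with a median log2 change of 0.55 against 0.16 for all tested miRNAs. Of those 7, miR-511-3p, which lies within the macrophage mannose receptor gene Mrc1, was detected on no control array and all 4 irradiated arrays, so it could be tested only through the group where it is high. Its fitted change of 1.37 rests on that detection pattern and turned with normexp (-0.05). Among the others, detected at both doses, miR-132-3p, induced by CREB, changed most, by 1.29 ± 0.18 (SE, limma adjusted p = 0.000146). Next came miR-99b-5p (0.80) and miR-125a-5p (0.59). The call of miR-125a-5p was lost without control replicate 2 or 3 (limma adjusted p = 0.0504 and 0.058). miR-155-5p, an inducible miRNA of activated lymphocytes and macrophages, had a change of -0.10 ± 0.30 (SE, limma adjusted p = 0.808). The others that did not pass were let-7e-5p (0.43), miR-301a-3p (-0.19) and miR-212-3p (-0.06). The number called higher was 2 with the percentile over all miRNAs, 3 with normexp and 2 within either slide row. It was 3, 4 and 4 without control replicate 2, control replicate 3 and irradiated replicate 4.

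None of the tested miRNAs in a list of other leukocyte miRNAs was called higher alongside miR-223-3p under the main scaling. Of 11 members 9 were tested, 4 were called lower (15.8% of all tested miRNAs were, and 26% were called higher) and 5 did not pass, with a median log2 change of -0.11. The signals of miR-150-5p, a miRNA of mature lymphocytes, were 101, 23.3, 97.3 and 29.7 at 0 Gy and 14.0, 11.2, 11.4 and 14.7 at 10 Gy. miR-150-5p was detected on all 4 control arrays and on 1 of 4 irradiated arrays. Its change was -2.32 ± 0.43 (SE, limma adjusted p = 0.00139), the largest fall of this list. miR-142a-3p, a miRNA of all blood cell lineages, changed by -1.04 ± 0.22 and miR-142a-5p, the other arm of its hairpin, by -1.001 ± 0.30 (SE, limma adjusted p = 0.00342 and 0.0202). The call of miR-142a-5p, whose doses overlapped, was lost without control replicate 3, irradiated replicate 1 or irradiated replicate 3 (limma adjusted p = 0.0677, 0.0688 and 0.0633). miR-181d-5p had the smallest called fall, -0.44 ± 0.17 (SE, limma adjusted p = 0.0475). With no scaling, 3 members of this list were called higher and 1 lower, when its median was 0.35, or -0.27 relative to the median of all tested miRNAs, as under the main scaling. The number called lower was 2 without control replicate 3 or without irradiated replicate 3, and 1 within slide row 1.

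**Figure D5:**
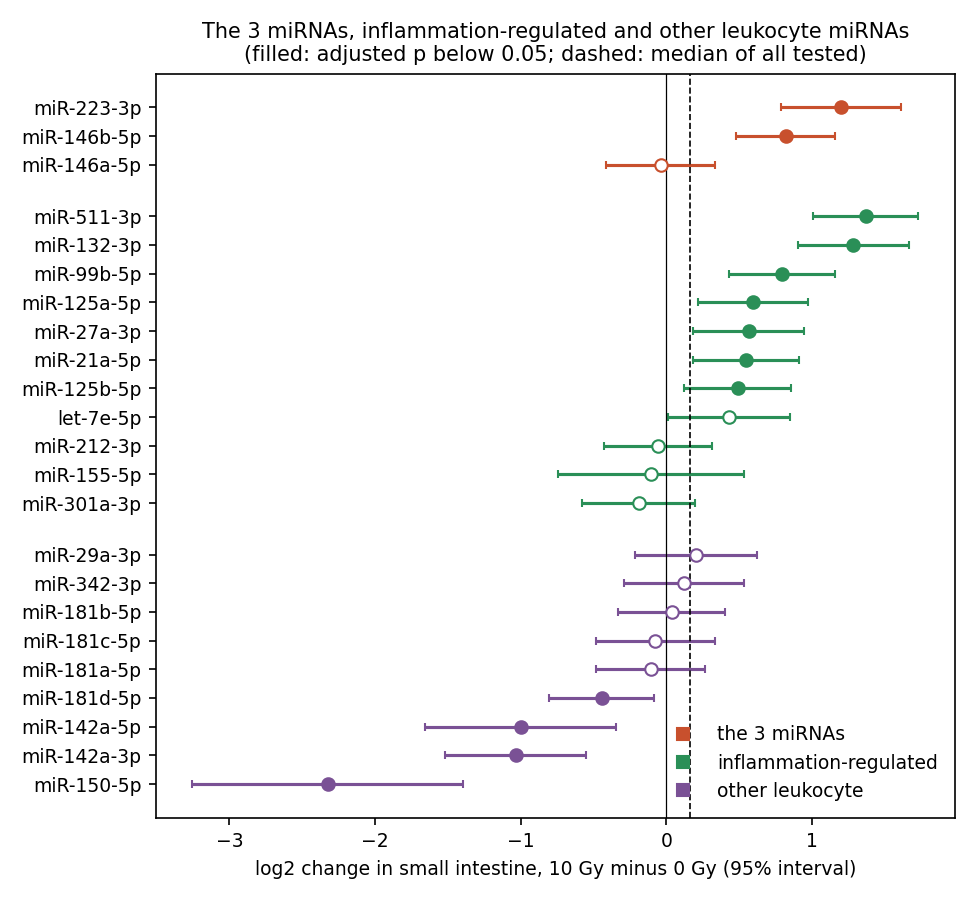
Log2 change in small intestine with 95% intervals for the 3 miRNAs and the tested members of the inflammation-regulated and other leukocyte lists. Filled points were called, and the dashed line is the median of all tested miRNAs (0.16). miR-223-3p and miR-146b-5p lie with 7 called inflammation-regulated miRNAs to the right, and miR-150-5p (-2.32) and the 2 miR-142a arms lie to the left.

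Markers of other cell types moved in the same tissue. Of the 10 epithelial miRNAs, 6 were called lower and none higher (15.8% and 26% of all tested miRNAs), led by miR-200c-3p (-0.79), miR-200b-3p (-0.79), miR-31-5p (-0.71) and miR-141-3p (-0.63). Their summed scaled level was 102 to 143 on the control arrays and 51.0 to 94.3 on the irradiated arrays, with no marker undetected. The number called lower was 3 without control replicate 3, and 0 with no scaling or within either slide row. None of the 4 smooth muscle miRNAs was called. The red cell miRNA miR-486a-5p was called higher (0.66), having been detected on irradiated arrays alone, while miR-451a, also of red cells, was not (0.21), and their summed level overlapped between doses (0.23 to 0.38 against 0.24 to 0.54). Of the platelet and endothelial list 1 of 3 tested members, miR-24-3p (0.58), was called higher, and not without control replicate 2 (limma adjusted p = 0.0607). The summed level of this list was 4.82 to 5.48 on the control arrays and 5.91 to 8.29 on the irradiated arrays. The part of these shifts in the values of miR-223-3p and miR-146b-5p was not tested, and in whole tissue fewer cells of a type and less of the RNA per cell cannot be told apart.

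The miRNAs whose profile over the 8 intestine arrays was most like that of each member were found by the root mean square difference of centred log2 levels, and are named as a description. For miR-223-3p they were miR-214-3p (0.26), miR-1982-5p (0.26) and miR-3960 (0.28). For miR-146a-5p they were miR-181a-5p (0.11), miR-27b-3p (0.12) and miR-98-5p (0.13). For miR-146b-5p they were miR-99b-5p (0.09), miR-199a-3p (0.13) and miR-22-3p (0.15), where 4 of its 8 values are the floor. Over the 6 group means the likeness was looser for miR-223-3p, whose nearest were miR-199a-5p (0.71), miR-146a-5p (0.72) and miR-152-3p (0.73). Over those means miR-146a-5p was nearest to miR-361-5p (0.10), miR-140-5p (0.16) and miR-7a-5p (0.17), and miR-146b-5p to miR-7671-3p (0.23), miR-30c-2-3p (0.29) and miR-6538 (0.30), with most of its means at the floor.

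In feces, miR-223-3p was dim and was detected on control arrays alone. Its unscaled signals were 14.5, 21.4, 113 and 76.9 at 0 Gy and 21.1, 16.9, 14.0 and 13.6 at 10 Gy. Control replicates 2, 3 and 4 detected it and no irradiated array did. Replicates 3 and 4, the bright ones, also had the most detected miRNAs of all fecal arrays, 675 and 585, and replicate 3 the highest summed signal. The part of that in the miR-223-3p value was not tested. The doses overlapped, since control replicate 1 lay among the irradiated arrays. The scaled log2 change was -0.68, with an exact two-sided permutation p of 0.143 where the smallest possible is 0.0286, and was -0.99 (exact p = 0.0286) without control replicate 1. Its direction turned with normexp (0.15). For comparison 37 of 491 tested fecal miRNAs (7.54%) were called with limma. miR-146a-5p and miR-146b-5p were detected on none of the 8 fecal arrays, with signals from -5.67 to -2.34 and from -4.38 to 0.23. In the same samples miR-155-5p was detected on 1 array, and miR-142a-3p, miR-142a-5p and miR-150-5p on none.

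In serum, miR-223-3p and miR-146a-5p were each detected on 1 of 6 arrays, control replicate 1, which had the most detected miRNAs of all serum arrays (219). The unscaled signals of miR-223-3p were 24.9 and 15.8 at 0 Gy and 12.6, 11.3, 14.5 and 11.05 at 10 Gy. Both control arrays lay above all irradiated arrays on this measure, as they did for 20.2% of the tested serum miRNAs (exact permutation p = 0.0667, the smallest that 2 against 4 can give). After scaling the order was lost, with a log2 change of 0.09 (exact permutation p = 0.8), and it was -0.69 with no scaling. The signals of miR-146a-5p were 15.6 and 4.64 at 0 Gy and 3.03, 0.53, 8.19 and 1.07 at 10 Gy, which overlap, and all 6 scaled values stood at the serum floor. miR-146b-5p was not detected in serum, with signals from -2.62 to -0.31. For comparison 9 of 193 tested serum miRNAs (4.66%) were called with limma. The red cell miRNAs miR-451a (-3.41) and miR-486a-5p (-1.46) were among those called lower (3.63% of tested), and the summed level of the red cell list was 17.6 to 20.6 at 0 Gy and 5.62 to 8.09 at 10 Gy. The part of red cell RNA in the serum signal of miR-223-3p was not tested.

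Levels in the 3 sample types were compared in 1 limma fit of all 6 groups, scaled over the 81 miRNAs detected on all 22 arrays, with 749 miRNAs tested. miR-223-3p was higher in intestine than in either of the others at both doses. In feces minus intestine, its log2 difference was -5.07 ± 0.21 without irradiation and -6.16 ± 0.21 after it (SE, limma adjusted p = 3.01e-13 and 3.53e-14). In serum minus intestine, it was -3.39 ± 0.25 and -4.42 ± 0.21 (SE, limma adjusted p = 1.96e-09 and 2.39e-12). All 8 fecal values of miR-223-3p stood at the floor of this fit, so the fecal differences depend on the floor and the scaling. At 0 Gy, where 3 of 4 fecal arrays detected it, the difference was -4.04 and -2.45 under 2 alternatives. Equal floor values have no spread, so the p against feces takes no account of how fecal arrays varied. The unscaled signal of its dimmer probe, A_54_P2629, averaged 53.5 in control intestine, 16.0 in control feces and 9.18 in control serum. After irradiation it averaged 149 in intestine, 7.66 in feces and 6.19 in serum. Folds between sample types on scaled values depend on the scaling over the 81 miRNAs, and on these the dimmer probe was at least 5.27-fold higher in irradiated intestine than in irradiated serum. Such differences are common between these samples, since 35.2% and 36.2% of tested miRNAs were called lower in feces than in intestine at 0 and 10 Gy, and 29.5% and 35.4% in serum.

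In this fit miR-146a-5p was also higher in intestine than elsewhere. Its log2 difference in feces minus intestine was -4.43 ± 0.23 in controls and -4.28 ± 0.23 after irradiation (SE, limma adjusted p = 9.19e-12 and 1.75e-11). In serum minus intestine it was -3.97 ± 0.28 and -4.06 ± 0.23 (SE, limma adjusted p = 1.14e-09 and 3.85e-11). All fecal values of miR-146a-5p and 3 of its 4 irradiated serum values stood at the floor of this fit, so these differences are compressed. The equal fecal values have no spread, so the p against feces lends no support beyond the detection pattern. On scaled values of the dimmer probe, intestine held at least 15.6-fold more miR-146a-5p than feces at 0 Gy and at least 7.96-fold more at 10 Gy. The unscaled signal of this probe averaged 19.0 against -2.60 at 0 Gy and 24.8 against -2.26 at 10 Gy. For irradiated intestine against irradiated serum, the bound on this probe, A_54_P2318, was not over 1-fold (0.873), while that on the brighter A_54_P2317 was. miR-146b-5p in irradiated intestine was above irradiated feces, by at least 6.41-fold on scaled values of A_54_P2006 (unscaled means of 19.6 and -1.06). Against irradiated serum the fit gave a limma adjusted p of 3.14e-07, but the bound on A_54_P2006 was not over 1-fold (0.70). miR-146b-5p entered this fit only through irradiated intestine and was compared with equal floor values. That p therefore lends no support beyond the detection pattern. At 0 Gy miR-146b-5p did not pass between any types.

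In order of scaled level, miR-223-3p ran from irradiated intestine through control intestine and serum to feces. The serum doses did not differ beyond their spread (means of -4.74 ± 0.30 over 2 arrays and -4.67 ± 0.46 over 4), and both fecal groups stood at the floor. The level in feces minus that in serum was -1.68 ± 0.25 at 0 Gy and -1.74 ± 0.21 at 10 Gy (SE, limma adjusted p = 2.98e-05 and 1.38e-06, with 18.7% and 21.6% of tested miRNAs called lower), but with no scaling it was 1.03 and 0.40, so this order is set by the scaling. For miR-146a-5p the intestine doses did not differ beyond their spread, nor did serum and feces (limma adjusted p = 0.261 and 0.613). Most of these serum and fecal values stood at the floor. For miR-146b-5p irradiated intestine stood above 5 groups at or near the floor, with no bound over 1-fold against irradiated serum.

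The dose change itself was compared between sample types in the same fit. For miR-223-3p, the change in feces minus the change in intestine was -1.09, but all 8 fecal values were at the floor, so this value restates the intestine change with its sign reversed and does not test a difference (6.94% of tested miRNAs were called lower in this contrast). With no scaling, where the fecal arrays keep their measured order, it was -2.99 (limma adjusted p = 0.00322), a value that also carries the unequal brightness of the arrays. The change in serum minus that in intestine was -1.02 ± 0.33 (SE, limma adjusted p = 0.0693), which did not pass. It did with no scaling (-2.35, limma adjusted p = 0.0409) and with quantile normalization over all arrays (-1.27, limma adjusted p = 0.00835). The serum side rests on a miRNA detected on 1 of 6 arrays, with a fitted serum change of 0.06. The main value is thus close to the intestine change with its sign reversed, and none of the 3 values firmly tests a difference. For miR-146b-5p both differences were -1.10, which is again the intestine change with its sign reversed, since serum and feces stood at the floor at both doses. For the serum contrast 6.28% of tested miRNAs were called lower. For miR-146a-5p neither difference passed (limma adjusted p = 0.908 and 1).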

How the data were processed

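The deposited files hold scanner output of 22 arrays. The authors made the deposited intensities with Agilent Feature Extraction 11.5, per the submitters' processing notes and the file headers, which subtracts a background from each spot, and the intensities were not normalized between arrays. Flags of 0 or 1 per spot, deposited by the authors, mark spots well above background. Outlying spots were dropped, probe means were added up per miRNA, and each array was scaled to the 75th percentile of the miRNAs that every array of its sample type detected (intestine 268, serum 121, feces 326). Values under a floor, namely the lowest scaled signal of any detected miRNA on a typical (median) array, were set to it before log2 was taken. The number of arrays limits the precision. Doses were compared with limma 3.58.1 in R 4.3.3 for miRNAs whose detections numbered no fewer than the arrays of the smaller dose group, with Benjamini-Hochberg adjustment and a threshold of 0.05. miR-223-3p and miR-146a-5p did not reach this in serum and feces, and exact permutation tests of their log2 levels were used there. An "at least" fold compares the mean of the group that detected a probe with a bound for the group that did not: on each array, whichever is larger of the dimmest detected probe and the probe in question. The lower bound among the probes is printed. The authors' series table held the same intensities within 1% and served as an alternative. On simulated intestine data, 15 of 20 miRNAs changed by 1 on the log2 scale and 20 of 20 changed by 2 were recovered, with 0 false calls among 295. For serum these were 10 of 20 and 17 of 20, with 1 false call among 153. For feces they were 5 of 20 and 14 of 20, with 1 false call among 451. Every simulated miRNA counted as detected and rises equalled falls in number, so the detection filter and a one-sided shift were not probed.

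The members and lists were chosen with earlier results of these data known. Of each list, up to 4 called miRNAs are named, largest change first, plus miR-155-5p, miR-142a-3p, miR-142a-5p and miR-150-5p, and the 3 most alike in profile to each member. The inflammation-regulated miRNAs that did not pass in intestine are named as well. Alternatives covered background correction, scaling, probe summary, detection filter, floor, blocks, array weights and leaving out each replicate. Same-numbered samples of the 2 doses did not deviate together in intestine (correlations of -0.56, -0.02, 0.32 and 0.44) or feces (-0.43, -0.21, 0.40 and 0.25). In serum the correlations were 0.28 and 0.44 for numbers 1 and 2, each highest for its own number. Numbers were not taken to pair samples in any sample type, and a replicate block served as an alternative.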

Additional observations from a re-analysis of the deposited data

Results flagged for a closer look

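Control replicate 1 of feces stood far below the other 3 control arrays in its scaled miR-223-3p level, the gap to the nearest taking 0.866 of the range of the 4 and passing the 95% critical value of Dixon's test. Its log2 level was -5.85, against -4.63, -4.54 and -4.44. On unscaled signal it did not stand apart in this way, at 14.5 against 21.4, 113 and 76.9, with replicate 2 nearest to it. Chance marks about 1 in 20 such groups of samples.

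The dose change of miR-223-3p differed between feces and intestine by -1.09 (limma adjusted p = 0.0208) in the fit of all 6 groups. All 8 fecal values were at the floor there, so the value is the intestine change of 1.09 with its sign reversed and is no test of a difference. The same holds for miR-146b-5p, where the differences were -1.10 for feces against intestine and -1.10 for serum against intestine (limma adjusted p = 6e-04 and 0.00161) with all fecal and serum values at the floor.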

How the results depend on the processing

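The rise of miR-223-3p in intestine kept its direction under all 24 alternatives (0.68 to 1.66) and lost its call with the percentile over all miRNAs (0.68) and within slide row 2 (0.96). Without each replicate it was 1.09 to 1.30. The change of miR-146b-5p lost its call with that percentile (0.54), with a mean of log2 over probes (0.20) and within rows 1 and 2 (0.81 and 0.83), and turned with normexp (-0.0649). It was larger with no scaling (1.08), with no detection floor (1.80) and with total gene signal (2.08). It was 0.78 to 0.85 without each replicate, and could not be tested among miRNAs detected on every array. The change of miR-146a-5p, never called, turned with array weights (0.0228), no scaling (0.42) and within row 1 (0.0600), and was -0.124 to 0.0380 without each replicate. The difference between the doses in the within-array ratio was 1.12 to 1.39 without each replicate. With the replicate number as a block (exact sign flips) it was 1.24 with p = 0.125, the smallest that 4 pairs can give. The replicate block changed no other call of a member (1.20 for miR-223-3p and 0.82 for miR-146b-5p) and left 134 intestine miRNAs called.

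In serum the change of miR-223-3p turned with the percentile over all miRNAs (-0.13), no scaling (-0.69), quantile normalization (-0.13) and total gene signal (-1.81), and was -0.19 to 0.37 without each replicate. That of miR-146a-5p was 0 throughout the latter. In feces miR-223-3p turned with normexp (0.15) and was -0.99 to -0.53 without each replicate. With no scaling, the dose change of miR-146a-5p in feces minus that in intestine turned (-0.42), as did the level of miR-223-3p in feces minus that in serum (1.03 and 0.40 at 0 and 10 Gy). miR-155-5p turned with no scaling (0.36) and within row 2 (0.0108), and was -0.31 to 0.13 without each replicate. miR-486a-5p (-0.10) and miR-511-3p (-0.0548) turned with normexp. The causes were not tested.

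The number called in intestine (140) was 91 with normexp and 48 and 49 within rows 1 and 2, and 94 to 148 without each replicate. In feces (37) it was 86 in 1 fit of all groups, 171 with array weights, 82 with a mean of log2 over probes, 3 with normexp, 3 among miRNAs detected on every array, and 56 and 0 within the rows (2 without control replicate 1 to 137 without control replicate 4). In serum (9) it was 24 in 1 fit of all groups, 3 among miRNAs detected on at least 1 array, 5 without a detection floor, 3 with no scaling, 2 among miRNAs detected on every array, 0 with the replicate block on replicates 1 and 2, and 0 within either row (3 without irradiated replicate 4 to 16 without irradiated replicate 1). In limma at an unadjusted p below 0.05 the main serum comparison had 40. Dim signals limit the values in serum and feces and those of miR-146b-5p.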
